A study of Homo sapiens with 4 samples.

Results

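Long-read sequencing of human induced cortical neurons assembled 671 first exons that overlapped no exon of the annotation, in 649 annotated genes. Each was an exon of an unannotated transcript of an annotated gene, overlapped no annotated exon on its strand, and was the 5′ exon of a spliced transcript in every unannotated transcript that carried it. They made up 671 of 2331 unannotated exon loci in annotated genes, beside 910 internal exons, 723 last exons and 27 exons of mixed position. In all, 749 unannotated transcripts began with 1 of these exons, and 607 of the 671 exons were carried by 1 transcript each. Of the 649 genes, 20 held 2 such exons and 1 held 3.

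The study compared 4 libraries, 1 per group, by PacBio Iso-Seq, a full-length cDNA method in which a read can span a whole transcript. The cells were i3N cortical neurons made from the KOLF2.1J iPSC line by doxycycline-inducible NGN2, and all 4 groups carried a constitutive dCas9-BFP-KRAB construct for CRISPRi, a lentiviral sgRNA and puromycin selection as a stable pool. The control received a non-targeting sgRNA, the knockdown library an sgRNA to TDP-43, the azacytidine library a non-targeting sgRNA and 5 µM 5-azacytidine for 72 hours, and the combined library the TDP-43 sgRNA and 5-azacytidine. The labels give harvest on day 12 or day 15 according to the application, without saying which applied to these libraries. With 1 library per group there was no replicate check, so each test below compares the reads of 2 libraries, not 2 conditions, and each interval and floor covers counting error only.

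Where transcription starts sets the first exon, and with it the 5′ untranslated region and at times the N terminus of the protein. Many neuronal genes have several promoters, and CpG-rich promoters in particular start transcription over a stretch of bases rather than at a single one. TDP-43 is an RNA-binding protein known for keeping unannotated (cryptic) exons out of mRNA in neurons, and 5-azacytidine is a cytidine analog that inhibits DNA methyltransferases, whose mark is associated with silent promoters.

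A minority of these exons, 42 of the 671, began close to a RefSeq start of the same gene. The 6 sequences below are the named first exons that begin inside RefSeq's promoter window of their own gene (250 bases before to 50 after the gene's start, GRCh38.p14) on chromosomes where sequence is shown. Lower case is the stretch before the exon, clipped where an annotated exon begins or ends, and capitals are the first bases of the unannotated exon, at most 30. FAM20B is at chr1:179026099-179026172 on the plus strand, TET1 at chr10:68600224-68600505 on the plus strand, SQSTM1 at chr5:179806953-179807058 on the plus strand, FAXC at chr6:99349961-99350015 on the minus strand, HIP1 at chr7:75639411-75639492 on the minus strand and PGAP4 at chr9:101486768-101486948 on the minus strand.
FAM20B: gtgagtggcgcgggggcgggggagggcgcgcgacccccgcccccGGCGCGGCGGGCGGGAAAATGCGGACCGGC
TET1: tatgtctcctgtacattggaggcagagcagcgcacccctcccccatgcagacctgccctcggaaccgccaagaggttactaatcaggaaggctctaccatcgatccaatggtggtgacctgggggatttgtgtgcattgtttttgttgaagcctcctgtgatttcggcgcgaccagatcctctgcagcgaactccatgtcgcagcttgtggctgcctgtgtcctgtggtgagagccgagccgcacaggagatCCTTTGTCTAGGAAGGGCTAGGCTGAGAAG
SQSTM1: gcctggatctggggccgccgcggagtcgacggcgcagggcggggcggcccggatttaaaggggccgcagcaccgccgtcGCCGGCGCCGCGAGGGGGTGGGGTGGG
FAXC: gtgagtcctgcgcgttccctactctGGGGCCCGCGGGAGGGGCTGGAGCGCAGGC
HIP1: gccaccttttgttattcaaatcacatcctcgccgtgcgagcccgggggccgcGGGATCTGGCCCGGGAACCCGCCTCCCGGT
PGAP4: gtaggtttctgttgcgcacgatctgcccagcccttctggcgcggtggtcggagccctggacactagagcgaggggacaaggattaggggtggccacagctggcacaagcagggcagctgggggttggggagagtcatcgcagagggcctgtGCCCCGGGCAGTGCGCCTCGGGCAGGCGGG

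In FAM20B, FAXC and PGAP4 the lower-case run begins with gt at the base next to an annotated exon, so the unannotated exon starts inside the intron that follows, 44, 25 and 151 bases further on. The FAXC exon begins at the RefSeq start itself and the TET1 exon 2 bases after it. The exons of FAM20B and SQSTM1 begin 19 and 23 bases after the RefSeq start, and those of PGAP4 and HIP1 begin 27 and 198 bases before it. These stretches are rich in G and C, at 85.1% of bases for FAM20B, 80.2% for SQSTM1, 74.5% for FAXC, 68.0% for PGAP4, 67.1% for HIP1 and 56.4% for TET1. No TATAAA, searched on both strands, occurs in any of the 6 as printed.

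Across all 671 members, 96 began inside a RefSeq promoter window: 42 in the window of their own gene, 32 in that of a gene on the opposite strand and 22 in that of another gene on the same strand. Of the 42, 26 began within 50 bases of the RefSeq start and 7 within 5 bases. The 42 windows had a median observed-to-expected CpG ratio of 0.815, against 0.579 over all 35116 RefSeq windows, and a median GC content of 70.0% against 58.7%. The opposite-strand windows were alike, at 0.824 and 70.5%. TATAAA on either strand in the 100 bases before the RefSeq start was found in 2.38% of the 42 windows, in 0.0% of the windows of the other 2 kinds and in 4.99% of all windows. These windows describe the members next to RefSeq starts, not the other 575, for which no sequence was used here.

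By position, 341 members (50.8%) began upstream of every annotated start of their gene, 313 (46.6%) inside the gene and 17 (2.53%) downstream of it, where the assignment to the gene is that of the authors' transcript program. A start within 1000 bases of an annotated start of the same gene was found for 230 members (34.3%), which held 48.4% of all reads of the members. The 94 members 0 to 500 bases downstream of an annotated start held 1202 of 4609 reads (26.1%). At the other end, 137 members began over 10000 bases upstream and 65 over 10000 bases downstream of the nearest annotated start, with 622 and 539 reads.

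**Figure D1:**
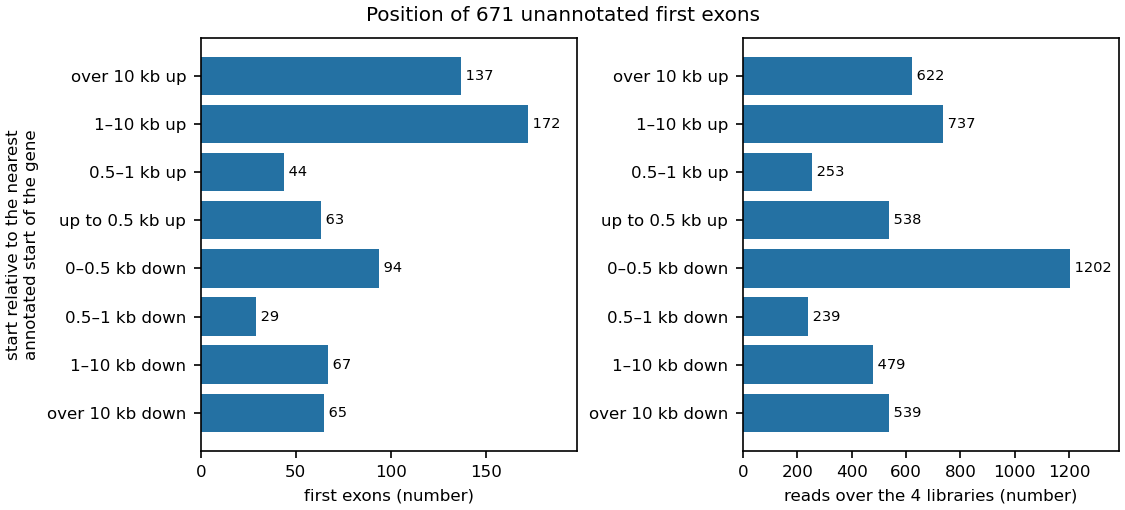
Number of unannotated first exons (left) and their reads summed over the 4 libraries (right), by the distance of the exon's start from the nearest annotated start of the gene. The bin 0 to 0.5 kb downstream holds 94 exons and the most reads, 1202, while the bin 1 to 10 kb upstream holds the most exons, 172.

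The exons had a median length of 224 bases (range 7 to 4759), against 158 bases for the 297746 annotated first exons, and a median first intron of 3019 bases. Splicing joined 375 of them (55.9%) to a 3′ splice site annotated in the gene, 27 to one annotated in another gene and 269 (40.1%) to an unannotated one. The 2 classes differed in depth: members joined to an annotated site of the gene had a median of 4 reads, and those joined to an unannotated site had 2. Another 171 members (25.5%) began within 1000 bases of an annotated start running the other way, as did 18.2% of the 77186 annotated genes. A further overlap concerned strand: 166 members lay over an annotated exon of the opposite strand, and whether the counting used strand is not given in the sources used here. Protein-coding genes, as named in GENCODE release 29, held 372 members (55.4%), antisense genes 70 and lincRNA genes 61, and 128 were in genes not in that release.

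Most of these exons were rare. A read here is the deposited estimated transcript count divided by 2 and rounded. This follows the gene table, where counts were even numbers (within 0.00031), and the unique counts, of which 0 were odd. Evenness was not checked in the transcript or full-length counts. The 671 members held 4609 reads, with a median of 2 and a maximum of 158 per member, and 222 (33.1%) had 1 read. Reads were found in 368 members in the control, 340 in the knockdown, 350 in the azacytidine and 293 in the combined library. Only 105 members had reads in all 4 libraries, and these held 55.8% of the reads, while 306 had reads in a single library. All but 1 of the 671 had at least 1 full-length read. That class of read was taken as deposited, and whether such reads reach the transcript's 5′ end was not tested.

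As a share of all transcript reads, members held 0.339% in the control (1289 of 380226 reads, 95% Wilson interval 0.321 to 0.358), 0.286% in the knockdown library (1282 of 448742, 0.271 to 0.302), 0.333% in the azacytidine library (1058 of 317711, 0.314 to 0.354) and 0.340% in the combined library (980 of 288441, 0.319 to 0.362). Reads given to a gene but to no transcript of it do not enter these shares or the usage below. The knockdown library was lowest and its interval overlapped none of the others. It was also the deepest, and in full-length reads the 4 shares lay between 0.489% and 0.505%. Full-length reads made up 42.0%, 40.7%, 54.2% and 45.0% of the members' reads in the order above, more than the 28.2%, 23.3%, 35.7% and 31.2% among all transcript reads. This was not particular to first exons. Over the 4 libraries it was 45.1% for them, 42.3% for unannotated internal exons and 50.7% for unannotated last exons.

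The targeted gene, TARDBP, which encodes TDP-43, had 104 gene reads of 595158 in the control, 72 of 767621 in the knockdown, 73 of 466337 in the azacytidine and 43 of 477622 in the combined library. All 12 neuronal markers were detected in every library, at a summed 3860, 3760, 4570 and 3280 per 1000000 gene reads. The 6 pluripotent markers summed to 361, 360, 277 and 291, with 1, 2, 0 and 3 of them at 0. Markers of dividing or progenitor cells summed to 1140 and 926 on the same scale in the control and knockdown libraries and to 142 and 117 with azacytidine. Astrocyte markers gave 52.1, 43.0, 2.14 and 0.0, with AQP4 at 0 throughout, and mesenchymal markers 84.0, 75.6, 15.0 and 4.19, with DCN at 0 throughout. In bulk libraries, fewer cells of a type and less RNA per cell cannot be told apart. The part of these markers in the azacytidine results below was not tested.

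Of the 671 members, 127 had at least 10 reads over the 4 libraries, and 57 of these, in 55 genes, also lay in genes with a mean of at least 20 transcript reads per library, so that usage could be tested. Usage is the percentage of the gene's transcript reads that came from transcripts beginning at the exon. Each treatment was tested in 2 pairs of libraries, without and with the other treatment, with Fisher's exact test (two-sided), adjusted by Benjamini-Hochberg over the 169 unannotated loci of all kinds that passed the same minimums. A call needed an adjusted p under 0.05 and a change of at least 10 percentage points, in the same direction, in both pairs. Pooled over libraries, usage of the 57 ranged from 4.22% to 93.2% with a median of 16.6%. It was at least 25% for 17 members and at least 50% for 4. The 70 members with 10 or more reads in genes of lower depth had a median usage of 42.4%, and 30 of them made up at least 50% of their gene's transcript reads.

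Of the 4 tested members above 50%, ZSCAN23 had the steadiest values. This gene encodes a zinc finger protein of the SCAN family. Its exon held 24 of 25, 31 of 34, 9 of 10 and 18 of 19 of the transcript reads assigned to ZSCAN23. The order is control, knockdown, azacytidine, combined, and is kept below. The exon lies beyond the annotated gene's end (chr6:28424343-28425731, minus strand), and its place in ZSCAN23 is the program's assignment. It also lies over an annotated exon of the opposite strand, and whether the counting used strand is not given. Its transcript has 2 exons and runs further downstream, so it holds no annotated exon of ZSCAN23. Among the genes of lower depth, an exon upstream of the antisense gene ENSG00000274383 held 6 of 6, 23 of 23, 10 of 11 and 29 of 29 reads. An exon of ENSG00000283761 held 14 of 19, 23 of 26, 0 of 3 and 12 of 15. Gene reads, which include those given to no transcript, were 67, 55, 18 and 39 for ENSG00000274383. They were 48, 66, 4 and 23 for ENSG00000283761. Each of these exons had 1 full-length read. MIER2, tied with SEPTIN6 for the last place among the 10 with most reads, had 9 of 16, 15 of 19, 7 of 17 and 14 of 22. Pooled over the 4 libraries these 3 exons held 98.6%, 77.8% and 60.8% of their gene's transcript reads.

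The TDP-43 knockdown called 1 member higher, in CAMK2B, and 0 lower. Over all 169 tested loci, 4.73% were called higher and 0.0% lower: 8 loci, of which 1 was a first exon, 5 internal exons and 2 last exons. The members' median change was -2.86 percentage points without azacytidine and -0.67 with it, against 0.60 and 4.0 over all tested loci. Of the 57, 9 were higher and 17 lower in both pairs. An unadjusted p under 0.05 was found for 7 members in the first pair and 5 in the second.

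CAMK2B encodes the beta subunit of calcium/calmodulin-dependent protein kinase II, a kinase of synaptic plasticity. Its exon is 2117 bases long (chr7:44222117-44224233, minus strand) and begins 1680 bases downstream of the nearest of 45 annotated starts. It had 0 of 28 reads in the control, 11 of 25 in the knockdown, 0 of 42 in the azacytidine and 13 of 45 in the combined library. Reads were thus seen in both libraries with the TDP-43 sgRNA and in neither without it. There, a floor of 3 reads is a usage of 10.7% and 7.14%, and the upper Wilson limits (95%) are 12.06% and 8.38%. Usage rose by 44.0 percentage points without azacytidine (Fisher's exact test, Benjamini-Hochberg adjusted p = 0.00124) and by 28.9 with it (adjusted p = 0.00181). The exon reached the minimum of 10 reads through the 2 libraries where it is high, so these p-values are of an exon picked by those reads. The additive edgeR model over the 4 libraries, whose error is the spread between pairs, gave an adjusted p of 0.206. Full-length reads numbered 0, 7, 0 and 6, and uniquely assigned reads 0, 8, 0 and 8, again in the 2 libraries with the sgRNA. With unique reads the changes were 50 and 29.6 points but missed the threshold (adjusted p = 0.0682 and 0.0907 by the same test), at fewer reads.

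**Figure D2:**
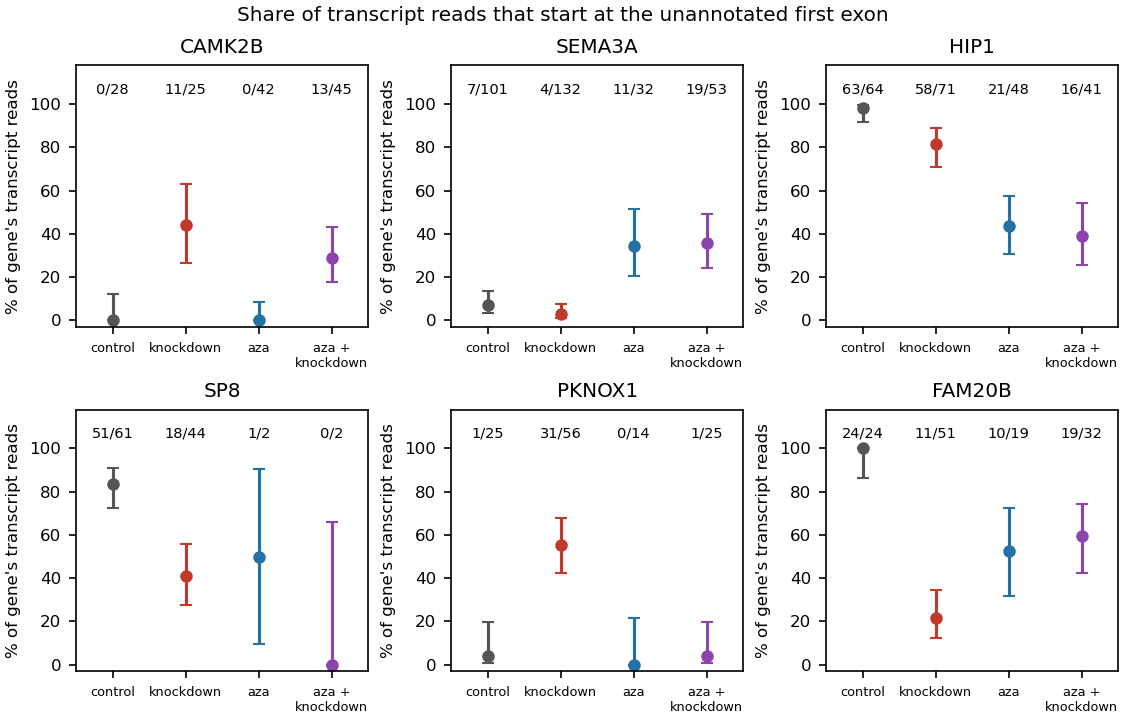
Usage of 6 unannotated first exons in each library, as the percentage of the gene's transcript reads; points are single libraries, bars are 95% Wilson intervals for counting error, and the numbers above give exon reads over gene transcript reads. CAMK2B has reads in both knockdown libraries and neither other, SEMA3A is highest and HIP1 lowest in both azacytidine libraries, and SP8, PKNOX1 and FAM20B met the rule for a call, which needs both pairs, for neither treatment.

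IGLON5, a neuronal cell adhesion gene, held the other member among 41 genes listed as TDP-43 cryptic splicing targets. Its exon had 0 of 23, 7 of 24, 0 of 32 and 0 of 34 reads, all in the knockdown library without azacytidine, and 4 of the 7 were full-length. It had fewer than 10 reads and was not tested. Apart from CAMK2B, no member was called for the knockdown in any of the 8 gene lists. That list of targets was drawn up with results of these libraries known.

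Outside the call, the highest tested changes in a common direction were in LRFN1, SQSTM1, NCBP3 and FAM217B. LRFN1 is a synaptic adhesion protein, and the exon 94 bases downstream of its annotated start had 10 of 25, 22 of 35, 11 of 45 and 18 of 50 reads, 22.9 and 11.6 points higher with the sgRNA. SQSTM1, the autophagy receptor p62, had 12 of 32, 6 of 13, 5 of 29 and 15 of 39, a difference of 8.65 and 21.2 points. Relative to library size (scaled by TMM) the SQSTM1 exon was lower in the first pair, at a log2 ratio of -1.25. NCBP3, a cap-binding protein, and FAM217B differed by at most 11.4 points, and the FAM217B exon was lower relative to library size in the second pair (log2 ratio -0.53). None of the 4 passed the test in either pair.

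On the low side, SP8, a zinc finger transcription factor of the developing forebrain, had 51 of 61 reads in the control and 18 of 44 in the knockdown library, a change of -42.7 points (Fisher's exact test, adjusted p = 1.97e-04). With azacytidine the whole gene had 2 transcript reads in each library, of which 1 and 0 began at this exon, so the second pair carries almost no information. Its uniquely assigned reads were 14, 4, 0 and 0. PTPRG, a receptor tyrosine phosphatase, had 43 of 94, 55 of 139, 21 of 38 and 8 of 45. Its change was -6.18 points without azacytidine and -37.5 with it, and the second passed the same test (adjusted p = 0.00755). The combined library is the low one. Uniquely assigned PTPRG reads were 4, 6, 6 and 4, and with them the second pair missed the threshold (-38.5 points, adjusted p = 0.544 by Fisher's exact test), as it did relative to library size (log2 ratio -1.34, adjusted p = 0.215 by the exact binomial test). SIRPA, PPP3CC and PGAP4 were lower by 4.90 to 15.2 points in both pairs, with no adjusted p at the threshold. Relative to library size, the log2 ratios of PTPRG in the first pair (0.0402) and SIRPA in the second (0.0032) were just above 0.

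Some members passed the test for the knockdown in a single pair, and they are named here after their values were seen. Without azacytidine, 2 of the 57 tested members were higher and 4 lower. Over all 169 tested loci, 13 (7.69%) were higher and 4 (2.37%) lower, so every lower locus was a member. With azacytidine, 2 members were higher and 1 lower, where all loci gave 11 (6.51%) and 2 (1.18%). PKNOX1, a homeodomain transcription factor, had 1 of 25, 31 of 56, 0 of 14 and 1 of 25 reads at an exon inside the gene, and 27 of the 31 were full-length. That exon was high in the knockdown library alone and spliced to an unannotated site. It reached the minimum of 10 reads through that library, so its passing in the pairs with that library is a description. NFYA, a subunit of the CCAAT-binding factor NF-Y, had 0 of 33, 0 of 49, 0 of 35 and 11 of 30, all in the combined library, of which 2 were unique; it reached the minimum of 10 reads through that library alone, so its passing in the pairs with that library is a description. MIR1915HG had 8 of 28, 0 of 32, 3 of 17 and 3 of 20, and it too had under 10 reads outside its high library, the control. HIP1, described below, was 16.8 points lower in the first pair and 4.73 in the second. PKNOX1 and NFYA each had 1 high library of the 2 with the sgRNA, while in MIR1915HG both libraries with it were below both without it, by 28.6 points at 8 against 0 reads and by 2.65 points at 3 reads each.

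FAM20B encodes the xylose kinase of proteoglycan linkers. Its 46-base exon had 24 of 24, 11 of 51, 10 of 19 and 19 of 32 reads, and dropped by 78.4 points in the knockdown library without azacytidine (Fisher's exact test, adjusted p = 2.74e-09) but 6.74 points higher with it. The control is the high library. Just 2, 2, 2 and 3 of those reads were uniquely assigned, and the same numbers were full-length, so most of the reads were shared with other FAM20B transcripts.

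Azacytidine called 1 member higher, in SEMA3A, and 1 lower, in HIP1. Each is 0.592% of the 169 loci, since these 2 were the loci called. The members' median change was 0.0 points without the knockdown and 3.56 with it, against 0.0 and 4.64 over all tested loci. In both pairs 15 members were higher and 11 lower. An unadjusted p under 0.05 was found for 7 and 17 members.

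SEMA3A encodes semaphorin 3A, a secreted repellent of growing axons. The exon is 418 bases long (chr7:84150200-84150617, minus strand), begins 44172 bases downstream of the nearest of 7 annotated starts and opens a transcript of 17 exons. It had 7 of 101 reads in the control, 4 of 132 in the knockdown, 11 of 32 in the azacytidine and 19 of 53 in the combined library. Both azacytidine libraries were above both others in reads and in usage, while the gene's reads went the other way. Usage rose by 27.4 points without the knockdown (Fisher's exact test, adjusted p = 0.0108) and by 32.8 with it (adjusted p = 9.88e-07). The additive edgeR model gave an adjusted p of 0.152. Full-length reads were 4, 3, 9 and 13, and gave 59.5 and 64.7 points with adjusted p = 0.0017 and 2.72e-05 by the same test. Unique reads were 6, 3, 10 and 16, and with them the first pair missed the threshold (23.8 points, adjusted p = 0.444). Relative to library size, the exon's log2 ratio was 0.89 in the first pair, under the minimum of 1, and 2.70 in the second.

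HIP1 encodes huntingtin-interacting protein 1, an adaptor between clathrin and actin in endocytosis. With 158 reads its exon had the most of all 671 (chr7:75639051-75639440, minus strand; its 5′ end is printed above). It had 63 of 64 reads in the control, 58 of 71 in the knockdown, 21 of 48 in the azacytidine and 16 of 41 in the combined library. Both azacytidine libraries were lower than both others, without overlap. Usage fell by 54.7 points without the knockdown (Fisher's exact test, adjusted p = 1.25e-09) and fell by 42.7 with it (adjusted p = 2.00e-04). The additive edgeR model gave an adjusted p of 0.152. But 1, 5, 1 and 2 of the reads were uniquely assigned and 1, 4, 1 and 0 were full-length, so nearly all the reads behind the call were ones that the program divided between HIP1 transcripts. The transcript that begins here has 31 exons.

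**Figure D3:**
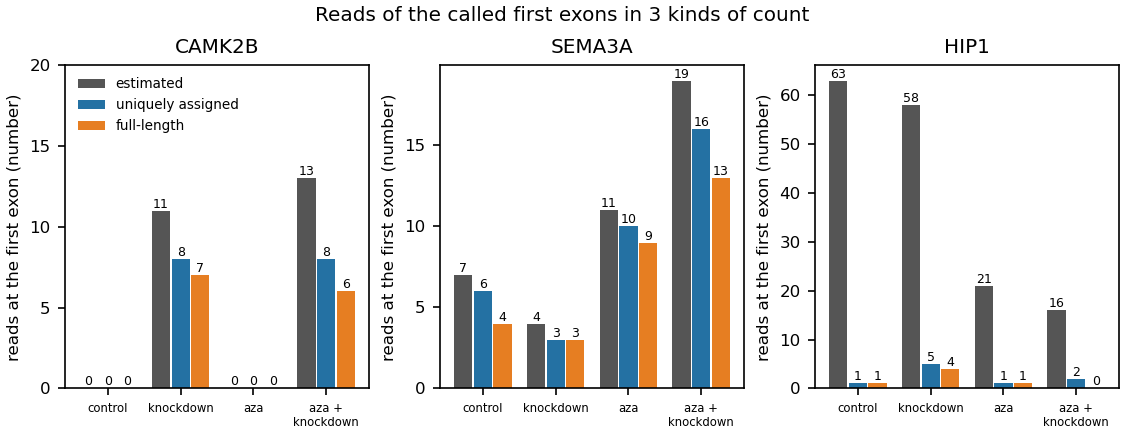
Reads at the 3 called first exons in each library by kind of count: estimated counts, which divide ambiguous reads, uniquely assigned counts and full-length counts. All 3 kinds are 0 in the control and azacytidine libraries for CAMK2B and place both azacytidine libraries highest in SEMA3A, while in HIP1 the unique counts (1, 5, 1 and 2) are far below the estimated ones (63, 58, 21 and 16).

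The next highest with azacytidine were the second LRFN1 exon, FAXC, CDK5R1 and SDC2. In LRFN1 the exon 780 bases downstream of the annotated start had 5 of 25, 6 of 35, 14 of 45 and 22 of 50 reads, which was 11.1 and 26.9 points higher, while the exon at 94 bases was 15.6 and 26.9 points lower. The exon at 780 bases lies over an annotated exon of the opposite strand. FAXC, a homologue of a fly gene of axon connections, had 1 of 63, 1 of 59, 6 of 42 and 7 of 38 (12.7 and 16.7 points), with full-length reads of 1, 1, 5 and 5. CDK5R1, the p35 activator of the neuronal kinase CDK5, had 3 of 31, 0 of 45, 9 of 47 and 7 of 33. SDC2, a syndecan, had 7 of 65, 5 of 46, 8 of 27 and 5 of 25. In these 4 genes both azacytidine libraries had the higher usage, but 1 pair or both missed the threshold.

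Lower values in both pairs without a call were found in SP8, LRFN1 as above, SQSTM1 and PSMA7. SP8 went from 51 and 18 reads to 1 and 0 as the whole gene went from 67 and 63 gene reads to 2 and 2. PSMA7, a proteasome subunit, had 6 of 21, 7 of 24, 6 of 36 and 0 of 13. SQSTM1 was 20.3 and 7.69 points lower. Relative to library size, however, the SQSTM1 exon was higher in the second pair (log2 ratio 1.84), the PSMA7 exon in the first (0.27) and the LRFN1 exon at 94 bases in both (0.40 and 0.30).

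In a single pair, azacytidine gave 1 member higher and 2 lower without the knockdown. Over all 169 tested loci, 3 (1.78%) were higher and 2 (1.18%) lower there, so both lower loci were members. With the knockdown, 5 members were higher and 2 lower, where all loci gave 12 (7.1%) and 3 (1.78%). These calls added FAM20B, CDK5R1, NFYA, UBTD2 and PKNOX1 to SEMA3A and HIP1. CDK5R1, NFYA, UBTD2 and PKNOX1 had under 10 reads outside the libraries where they were high, so their passing is a description. UBTD2 had 3 of 56, 0 of 77, 2 of 41 and 6 of 36 reads. FAM20B passed the test in both pairs with opposite signs, at -47.4 points without the knockdown (Fisher's exact test, adjusted p = 0.00923) and 37.8 with it (adjusted p = 0.0133). SEPTIN6, a cytoskeletal GTPase among the members with the most reads, had 10 of 40, 9 of 38, 12 of 36 and 14 of 25.

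**Figure D4:**
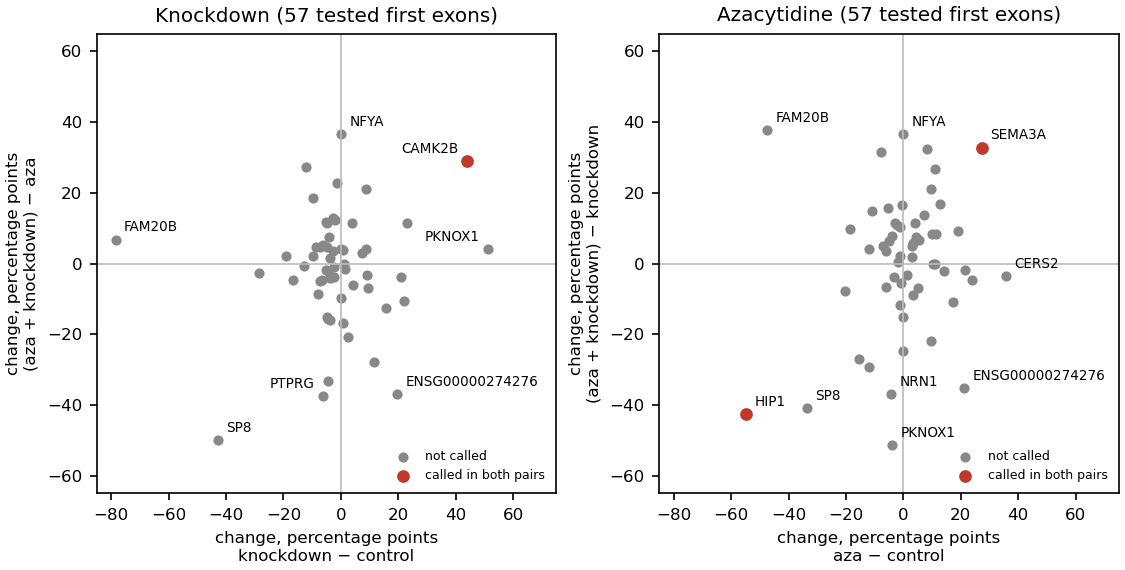
Change in usage in percentage points in the pair without the other treatment (horizontal axis) and with it (vertical axis) for the 57 tested first exons; labels mark the called exons and those past 35 points in either pair. CAMK2B is the called exon for the knockdown, at 44.0 and 28.9, SEMA3A and HIP1 are those for azacytidine, and FAM20B lies at -47.4 and 37.8 in the right panel.

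All 671 members, tested or not, were searched for reads in both libraries on 1 side (at least 3 each) and in neither on the other. This pattern was looked for after the values were seen. For the knockdown, 3 members had reads with it alone, where 0.644% of all 2331 loci did: CAMK2B, MNT with 0, 4, 0 and 5 reads, and ADGRB1 with 0, 4, 0 and 7. Transcript reads of MNT were 20, 43, 26 and 33. Those of ADGRB1 were 2, 8, 8 and 16. For its counts of 0, the floor of 3 reads sets no limit on usage in the control and is 37.5% with azacytidine. MNT encodes a MAX-binding repressor and ADGRB1 an adhesion receptor of the brain. Of all 2331 loci, 3 (0.129%) met the opposite pattern, and 1 of these was a member, ENSG00000293623.1, with 5, 0, 5 and 0 reads. Its gene had no other transcript reads in any library, so exon and gene cannot be told apart.

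For azacytidine, where 7 of all 2331 loci (0.3%) had reads with it alone, 4 members did. Among them, CNOT10, of the deadenylase complex CCR4-NOT, had 0 of 35, 0 of 34, 6 of 37 and 3 of 32. DNPEP, an aspartyl aminopeptidase, had 0, 0, 4 and 3 reads, and TMPRSS3, a serine protease, had the same numbers. In CNOT10 the gene's transcript reads were within 32 and 37 in all libraries.

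Of all 2331 loci, 10 (0.429%) had reads without azacytidine alone, and 7 of these were members. SCYL3 had 10, 3, 0 and 0 reads, FECH 4, 4, 0 and 0, and VAX1 3, 5, 0 and 0. WNT5B had 4, 3, 0 and 0, TGIF2 and ARHGAP36 3, 3, 0 and 0, and ENSG00000307232.1 6, 3, 0 and 0. VAX1 is a ventral forebrain homeodomain factor, WNT5B a Wnt ligand and TGIF2 a homeodomain repressor. In 5 of the 7 the gene's transcript reads were low with azacytidine. TGIF2 had 32, 28, 2 and 2 transcript reads, WNT5B 13, 9, 1 and 1, VAX1 8, 7, 1 and 1, and ARHGAP36 and ENSG00000307232.1 had 0 and 0. FECH, the last enzyme of haem synthesis, differed from these, with 50, 33, 44 and 35, and SCYL3 had 24, 23, 16 and 13. The gene reads of WNT5B were 33, 31, 21 and 12, so with azacytidine most of them were given to no transcript. For FECH and SCYL3 in the combined library, the floor of 3 reads is a usage of 8.57% and 23.1%. The upper Wilson limits there are 9.89% and 22.81%.

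Of the 77186 annotated genes, 0.841% held a member. That base takes in every annotated gene whatever its reads. No share among expressed genes was computed, so the gene lists below are not compared with it. Of 56 synapse genes and 44 ion channel and pump genes, 0 held a member, with lists that leave out other synaptic genes such as LRFN1. Axon guidance had 3 of 51 genes, all class 3 semaphorins: SEMA3A, SEMA3E with 7 of 30, 7 of 36, 4 of 14 and 1 of 8 reads, and SEMA3D with 0, 0, 2 and 0. RNA-binding and splicing factors had 1 of 50, SRRM3, a regulator of neuronal microexons, at 4 of 17, 10 of 18, 0 of 13 and 1 of 9. Transcription and chromatin had 3 of 62. TET1, a dioxygenase that oxidizes 5-methylcytosine, had 3 of 32, 2 of 42, 6 of 18 and 0 of 11 at an exon 40139 bases downstream of the nearest annotated start, and neither treatment passed the test there. SOX5 had 0, 0, 2 and 1 reads. Cytoskeleton and transport held HIP1, and kinase signalling CAMK2B.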

How the data were processed

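RNA of 4 libraries, 1 per group, was sequenced by PacBio Iso-Seq. The authors deposited an extended annotation, whose source field names Bambu, and 4 count tables; hg38 and minimap2 are named in the columns per the file headers, and hg38 also per the submitters' processing notes. Versions, annotation release and use of strand are not given in the sources used here. The gene, transcript and full-length tables hold estimated counts, and the unique table holds whole-number counts, as deposited by the authors. Gene and unique counts were even, so the counts of all 4 tables were divided by 2 and rounded to whole reads.

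First exons were found from the annotation, leaving out 1 first exon with no strand. Usage was tested with Fisher's exact test (scipy 1.17.1, two-sided), Benjamini-Hochberg adjusted over 169 loci per pair, with minimums of 10 exon reads and a mean of 20 gene transcript reads. Because each group had 1 library, the pairs compare reads of libraries. Alternatives used unique or full-length counts, undivided counts, other minimums, library size scaled by edgeR's TMM (4.0.16) or DESeq2 size factors (1.42.0), an additive edgeR quasi-likelihood model and each pair alone. The scripts were tested on simulated data. Gene transcript reads per library were 288441 to 448742 in all, and Wilson intervals at 95% and a floor of 3 counts cover counting error only. PCR copies were not told apart.

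Named exons were those called, the 10 with most reads, the 5 highest and 5 lowest tested in both pairs for each treatment, and those of at least 10 reads in 8 gene lists (at most 4 a list). Members and lists were chosen with earlier results of these data known. Symbols come from the reference gene table, gene types from GENCODE release 29 and promoter sequences from RefSeq (GRCh38.p14). Repeat content, splice donor bases and motifs outside RefSeq windows were planned but not computed, as no genome sequence was used here. Values of some members are not reported here.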

Additional observations from a re-analysis of the deposited data

Results flagged for a closer look

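The first exon of FAM20B differed with azacytidine in opposite directions in the 2 pairs of libraries. Its usage went from 24 of 24 reads in the control to 10 of 19 with azacytidine, a change of -47.4 percentage points. With the knockdown it went from 11 of 51 to 19 of 32, a change of 37.8 points. The difference between these 2 changes was not tested, and each side is 1 library. Uniquely assigned reads at the exon were 2, 2, 2 and 3 (control, knockdown, azacytidine, combined), and their part in the difference was not tested.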

How the results depend on the processing

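No paired analysis was possible because each group has 1 library, so that all 4 carry the same replicate number. CAMK2B stayed the member called for the knockdown, and SEMA3A and HIP1 those for azacytidine, with at least 5 or at least 20 exon reads, no minimum on the gene, a minimum change of 20 points or none, exons that are first in at least 1 transcript, and exons at least 50 bases from annotated ones. Calls for the knockdown and azacytidine numbered 0 and 0 with uniquely assigned counts (21 members tested), 0 and 1 with full-length counts (7 tested, SEMA3A called), and 0 and 0 in the additive edgeR model, which has 1 residual degree of freedom and gave 4 and 7 members at an unadjusted p under 0.05 (lowest adjusted p 0.119 and 0.152). Undivided counts gave 1 and 6, the azacytidine calls adding DNPEP, FAXC, SRRM3 and TIAM2. With a read defined as the count divided by 2, undivided counts enter each read 2 times, which by itself lowers p-values. The pair without the other treatment alone gave 6 and 3, and the pair with it 3 and 7. Against library size there were 1 and 2, with SP8 in place of SEMA3A.

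Members held 0.365%, 0.330%, 0.401% and 0.397% of uniquely assigned reads (control, knockdown, azacytidine, combined), 0.504%, 0.5%, 0.505% and 0.489% of full-length reads, and 0.301%, 0.255%, 0.289% and 0.289% of reads when kept 50 bases from annotated exons. Among members of at least 10 reads, 29.1% lay upstream of the gene, 75.6% joined an annotated 3′ splice site of the gene and 55.9% began within 1000 bases of an annotated start; the last was 30.8% for exons 50 bases from annotated ones.

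Signs that reversed did so against library size, as log2 ratios with TMM and with DESeq2 factors. Without the other treatment these were 0.0402 and 0.071 for PTPRG and -1.25 and -1.22 for SQSTM1 under the knockdown, and 0.40 and 0.42 for LRFN1 (exon at 94 bases) and 0.27 and 0.28 for PSMA7 under azacytidine. With it they were 0.0032 and 0.023 for SIRPA and -0.53 and -0.51 for FAM217B under the knockdown, and 0.30 and 0.31 for LRFN1 and 1.84 and 1.84 for SQSTM1 under azacytidine. The cause was not tested. Under the alternatives that recompute the test of a single exon, another 283 values kept sign and side of the threshold, 14 passed it and 17 no longer did. The 14 include values from undivided counts, among them FAXC in both azacytidine pairs. Depth limits the tests, as 544 of 671 members had under 10 reads, and so does the number of libraries, 1 per group.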
